A study of Mus musculus with 10 samples.

Results

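The nuclear-encoded genes of the mitochondrial respiratory chain were described in the tibialis anterior muscle of tumor-bearing and control mice. Members were the protein-coding genes whose symbol follows the naming of the subunits of complex I (Nduf a, b, c, s or v and a digit), complex II (Sdha to Sdhd), complex III (Uqcr genes and Cyc1), complex IV (Cox4 to Cox8) and ATP synthase, also called complex V (Atp5 genes). Of the 39179 genes in the count tables, 95 symbols matched, 10 of them were processed pseudogenes and were dropped, and 85 genes remained: 37 for complex I, 4 for complex II, 9 for complex III, 18 for complex IV and 17 for complex V. The naming does not follow structure everywhere. Ndufa4 is named for complex I but its protein is found in complex IV, Ndufa4l2 is a relative of Ndufa4, and Atp5s is not a structural subunit. Of the 85 genes, 82 passed the filter on low counts. Cox8c and Cox7b2 had 0 counts in all 10 libraries, and Cox6b2 had 0 to 5 counts per library.

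The samples were tibialis anterior muscles, fast-twitch and found at the front of the shin, from 4 Control and 6 LLC mice. LLC mice had been injected under the skin of each flank with Lewis Lung Carcinoma (LLC) cells, a mouse lung cancer line that causes cachexia, in which muscle and body weight are lost to a tumor. Control mice received PBS and carried no tumor. The sample labels gave the strain as C57BL/6J, an age of 10 weeks at injection and 23 days of tumor development, whereas the design text of the series named C57BL/10 males aged 8 weeks and day 22, and neither was chosen here. The labels name no genetic change in either group. Per the study's methods, the sequenced LLC animals were taken from those that lived through the whole period. Total counts were 16693209 to 21303084 per library, and 3 counts stand for 0.141 to 0.18 CPM, the unit of level used below, in which every library is put on one common total. In bulk muscle, fewer cells of a type and less RNA per cell cannot be told apart.

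The respiratory chain passes electrons from NADH (complex I) and succinate (complex II) through ubiquinone to complex III, and from there by cytochrome c to complex IV, which reduces oxygen. Complexes I, III and IV pump protons across the inner mitochondrial membrane, and complex V uses the return flow to make ATP. Most subunits are encoded in the nucleus, a few in mitochondrial DNA, and striated muscle builds complex IV partly from its own isoforms (Cox6a2, Cox7a1, Cox8b) in place of the forms used in most tissues (Cox6a1, Cox7a2, Cox8a).

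LLC 1 was at the low end of several measures. It had the lowest total count (16693209), the lowest share of counts from mitochondrial DNA (22.0%, against 22.9% to 27.9% in the other LLC libraries and 28.5% to 30.7% in Control) and the lowest summed level of 7 skeletal muscle markers (69290 CPM, against 97680 to 113400 CPM in the other 9 libraries). The medians of all members and of each complex, and the counts of members at the adjusted p, are therefore also given without it. So are most log2 fold changes of named members that it moves by over 1.5 times. A test of the gap between the lowest or highest library and the next found 0 outliers in the 5 complex levels and 5 isoform ratios described below, taken in each group. In groups this small that test has little power, so its result does not show that LLC 1 was like the rest. The chi-square per degree of freedom between libraries was 121 to 197 for LLC 1 against each other LLC library. Among the other LLC libraries it was 8.52 to 61.4, and among Control libraries 3.93 to 8.73. The muscle identity of the samples was clear from these markers, which summed to between 69290 and 113400 CPM.

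The respiratory chain genes had lower levels in LLC muscle across all 5 complexes, with a median change of -21%, and 1 of the 82 passed the test. The log2 fold change was below 0 for 82 of 82 genes, beside 49.7% of the 12690 genes tested, with a median of -0.34 beside 0.00 over all genes tested. With median-of-ratios scaling it was below 0 for 81 of 82, and Atp5g2 stood at 0.01. Between single genes the change ranged from -40.2% (Ndufa4l2) to -0.16% (Atp5g2). By the quasi-likelihood test of edgeR, with Benjamini-Hochberg adjustment and at an adjusted p of at most 0.05 and a change of at least 1.5-fold, 1 gene was called, Ndufa4l2, which is 1.22% of the 82 beside 5.63% of all genes tested. A change of 1.5-fold or more was reached by 4 of the 82 genes. At an adjusted p of at most 0.05 with no fold limit the count was also 1, beside 4.85% of all genes lower by that rule. The smallest adjusted p apart from that of Ndufa4l2 was 0.0711, for Atp5h.

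The levels separated the groups for many genes that did not pass. In 43 of 82 genes (52.4%) every LLC library lay below every Control library, beside 9.57% of all genes tested. An unadjusted p of at most 0.05 with a lower level in LLC was found for 43 genes (52.4%), beside 14.6% of all genes, and that count was 25 without Control 2, 21 without Control 3 and 25 without LLC 6. DESeq2's Wald test called 2 members, Ndufa4l2 and Atp5g3, beside 8.29% of all genes, and put 7 at an adjusted p of at most 0.05 without the fold limit (Ndufa4l2, Ndufb3, Sdhd, Cox5b, Atp5g3, Atp5g1 and Atp5h).

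The LLC mice differed among themselves in a shared order. LLC 1 was the lowest of the 10 libraries for 75 of the 82 genes (91.5%), and LLC 6 was second lowest for 67. Among LLC animals log2 CPM varied with a larger SD than among Control animals for 81 of 82 genes, beside 85.1% of all genes tested. Without LLC 1 the median log2 fold change shrank from -0.34 to -0.23, with 81 of 82 genes below 0. In the same fit 29 genes (35.4%) had an adjusted p of at most 0.05, all of them lower in LLC, beside 8.72% of all genes. The count past both limits stayed at 1 gene, Ndufa4l2, beside 7.65% of all genes. Leaving out LLC 1 thus made the differences smaller and the number past the adjusted p larger.

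**Figure D1:**
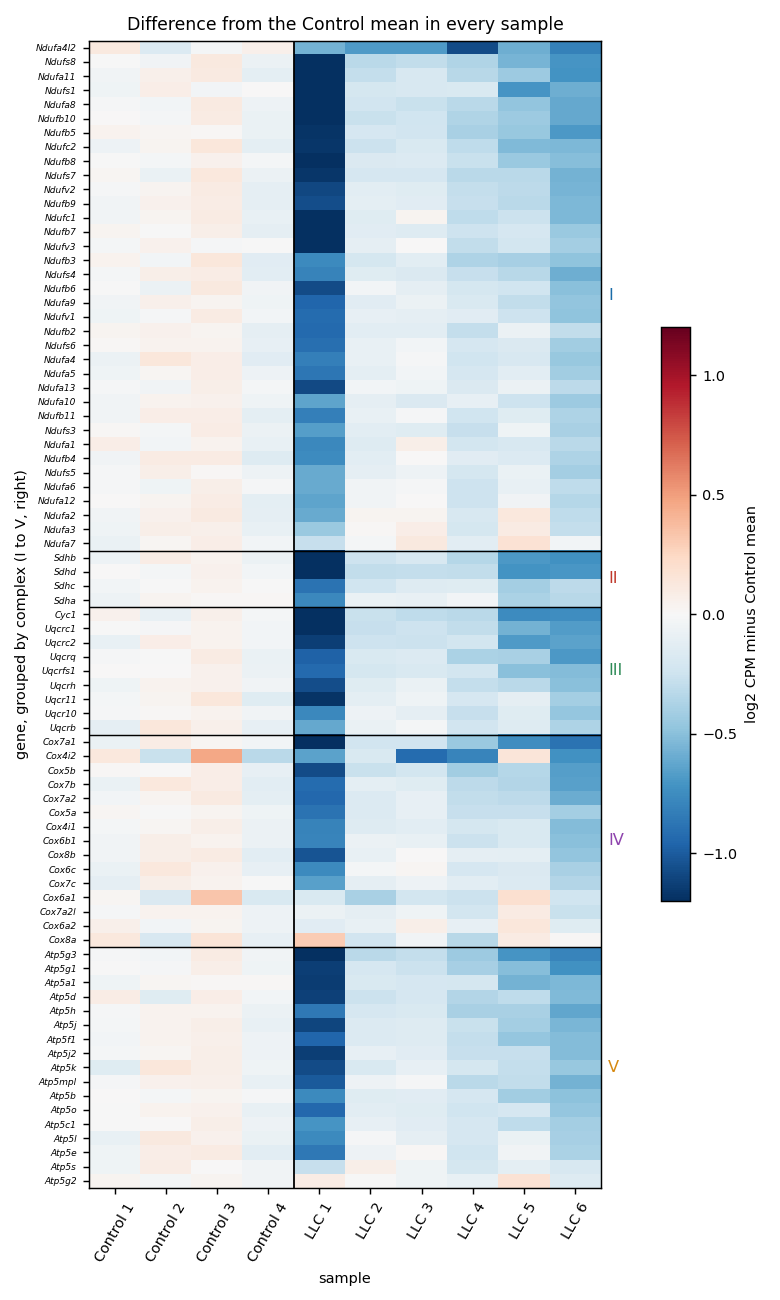
Difference of log2 CPM from the Control mean (color, from -1.2 to 1.2, values beyond drawn at the end color) for 81 of the 82 tested genes (rows, grouped by complex I to V) in each of the 10 libraries (columns). The LLC 1 column is the darkest blue for most rows, LLC 6 comes next, and rows such as Cox6a2, Cox8a, Ndufa7 and Atp5g2 stay pale throughout.

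LLC 1 was the lowest LLC library in each of the 5 complexes, and the order of the others varied. The level of a complex was taken as the mean log2 CPM of its tested genes minus the Control mean. In complex I (37 genes) the 4 Control libraries lay between -0.07 and 0.07, and LLC 1 to LLC 6 were at -0.94, -0.14, -0.11, -0.27, -0.25 and -0.46. In complex II (4 genes) the 6 LLC libraries were at -1.10, -0.22, -0.18, -0.20, -0.55 and -0.52. LLC 5 was thus well below LLC 2, 3 and 4 in complex II. In complex III (9 genes) the values were -1.10, -0.18, -0.16, -0.27, -0.40 and -0.56. In complex IV (15 genes) they were -0.70, -0.16, -0.15, -0.29, -0.15 and -0.45, and here LLC 5 was level with LLC 2 and LLC 3. In complex V (17 genes) they were -0.89, -0.13, -0.14, -0.27, -0.31 and -0.49. Every LLC library was below every Control library in all 5 complexes.

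The LLC means were -0.36 ± 0.31 for complex I, -0.46 ± 0.35 for complex II, -0.44 ± 0.35 for complex III, -0.32 ± 0.22 for complex IV and -0.37 ± 0.29 for complex V (SD, n = 6). The complex means differed by at most 0.14. Within the same animals complex III was below complex I in 6 of 6 LLC libraries, by 0.00 to 0.16, and below complex V in 6 of 6. In Control, complex I was below complex III in 2 of 4 libraries, and complex III below complex V in 3 of 4. The LLC 4 gaps, 0.0043 for complex I minus III and -0.0037 for III minus V, lay within the Control ranges. Those ranges were -0.0104 to 0.0124 and -0.0054 to 0.0095. Complex II was below complex IV in 5 of 6 LLC libraries, with the largest gaps in LLC 5 and LLC 1, and in 2 of 4 Control libraries. No test of the complexes against each other was made. Without LLC 1 the means were -0.25 ± 0.14, -0.33 ± 0.18, -0.31 ± 0.17, -0.24 ± 0.13 and -0.27 ± 0.15 in the same order (n = 5).

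**Figure D2:**
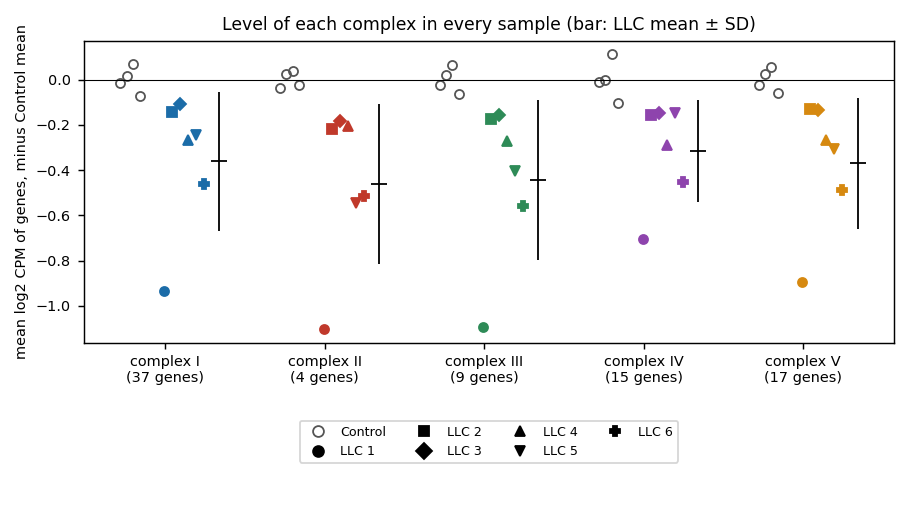
Mean log2 CPM of the tested genes of each complex minus the Control mean (vertical axis), for 4 Control libraries (open circles) and 6 LLC libraries (filled symbols, 1 per animal), with the LLC mean ± SD as a bar. LLC 1 is lowest in every complex, at -0.70 to -1.10, and LLC 5 lies lower in complexes II and III than in complex IV.

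As a share of nuclear counts, all members together took 3.75% ± 0.16 in Control (n = 4) and 3.02% ± 0.48 in LLC (n = 6). The Control libraries were at 3.68%, 3.77%, 3.96% and 3.60%, and LLC 1 to LLC 6 were at 2.19%, 3.48%, 3.41%, 3.23%, 3.04% and 2.80%. The groups did not overlap. Complex V took the largest share, 1.48% ± 0.05 in Control and 1.17% ± 0.19 in LLC, and complex II the smallest, 0.273% ± 0.009 and 0.218% ± 0.038.

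Complex I oxidises NADH. The median log2 fold change over its 37 genes was -0.32. In 17 of them (45.9%) all LLC libraries lay below all Control libraries, beside 9.57% of all genes tested. A lower level at an unadjusted p of at most 0.05 was found for 16 (43.2%), beside 14.6%. The median was -0.20 without LLC 1, with 11 genes at an adjusted p of at most 0.05, beside 8.72% of all genes lower at that limit. The 7 nuclear core subunits, which carry the flavin and the iron-sulfur centers, had a median of -0.39 (-0.27 without LLC 1) and 5 without overlap. The 19 accessory subunits of the membrane arm had a median of -0.36 and 9 without overlap (47.4%). The 9 accessory subunits of the matrix arm had a median of -0.27 and 2 without overlap (22.2%), nearer to the share of all genes. The medians of these 2 groups were -0.22 and -0.17 without LLC 1. Ndufs8, a core iron-sulfur subunit of the quinone module, had 127, 123, 138 and 121 CPM in Control and 45.2, 102, 104, 99.0, 86.3 and 77.9 CPM in LLC 1 to LLC 6. The groups did not overlap, and LLC 1 was far below the rest. Its log2 fold change was -0.57 ± 0.19 (SE) with an edgeR adjusted p of 0.0924, and -0.43 with an adjusted p of 0.00849 without LLC 1.

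Ndufs1, which holds the largest set of iron-sulfur centers, had 437, 478, 442 and 455 CPM in Control and 176, 391, 396, 399, 277 and 302 CPM in LLC (log2 fold change -0.49 ± 0.20, edgeR adjusted p = 0.144). LLC 1, LLC 5 and LLC 6 were the low libraries. Ndufv1, the NADH-binding flavoprotein, had 374 to 413 CPM in Control and 203 to 363 CPM in LLC (-0.31 ± 0.15, edgeR adjusted p = 0.205, and -0.20 without LLC 1). Ndufa7, a matrix-arm accessory subunit, had the log2 fold change nearest to 0 in complex I, at -0.02 ± 0.10 (94.2 ± 4.5 CPM in Control, 92.9 ± 10.3 in LLC), and its sign turned to 0.03 without LLC 1 and to 0.01 without Control 3. Exons of Ndufs1 overlap Eef1b2 and Ino80dos on the opposite strand.

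Ndufa4l2 was the one gene called lower. It is induced by low oxygen and encodes a relative of NDUFA4, and the gene lies on chromosome 10, 127514967 to 127517154 (GRCm38, plus strand). It had 7.04, 5.78, 6.38 and 6.74 CPM in Control and 4.32, 4.01, 4.00, 3.02, 4.26 and 3.63 CPM in LLC 1 to LLC 6, from 60 to 133 counts per library. The groups did not overlap, and LLC 1 was here the highest of the LLC libraries, unlike in nearly all other genes. The log2 fold change was -0.74 ± 0.12 (SE), with an adjusted p of 0.00406 by edgeR's quasi-likelihood test, and -0.77 with an adjusted p of 0.00193 without LLC 1. Its exons overlap those of Shmt2 on the opposite strand, for which the log2 fold change was -0.04 ± 0.07 (edgeR adjusted p = 0.760).

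Most stromal markers, though not all, were lower in LLC, as was Ndufa4l2. The summed level of 6 endothelial markers was 259 to 328 CPM in Control and 239 to 280 CPM in LLC, so the sums overlapped. Of the 6, 4 were lower without overlap, beside 9.57% of all genes tested, and 1 of them, Kdr, was called lower. Pecam1 and Tek had log2 fold changes of 0.31 and 0.09 (edgeR adjusted p = 0.0972 and 0.588). The summed level of 7 fibroblast markers was 302 to 387 CPM in Control and 55.9 to 99.0 CPM in LLC, with 7 of 7 called lower. The part of these cells in the Ndufa4l2 result was not tested. Ndufa4 itself, at 422 to 510 CPM in Control, had 263 to 460 CPM in LLC (log2 fold change -0.28 ± 0.15, edgeR adjusted p = 0.226, and -0.19 without LLC 1), with the groups overlapping.

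**Figure D3:**
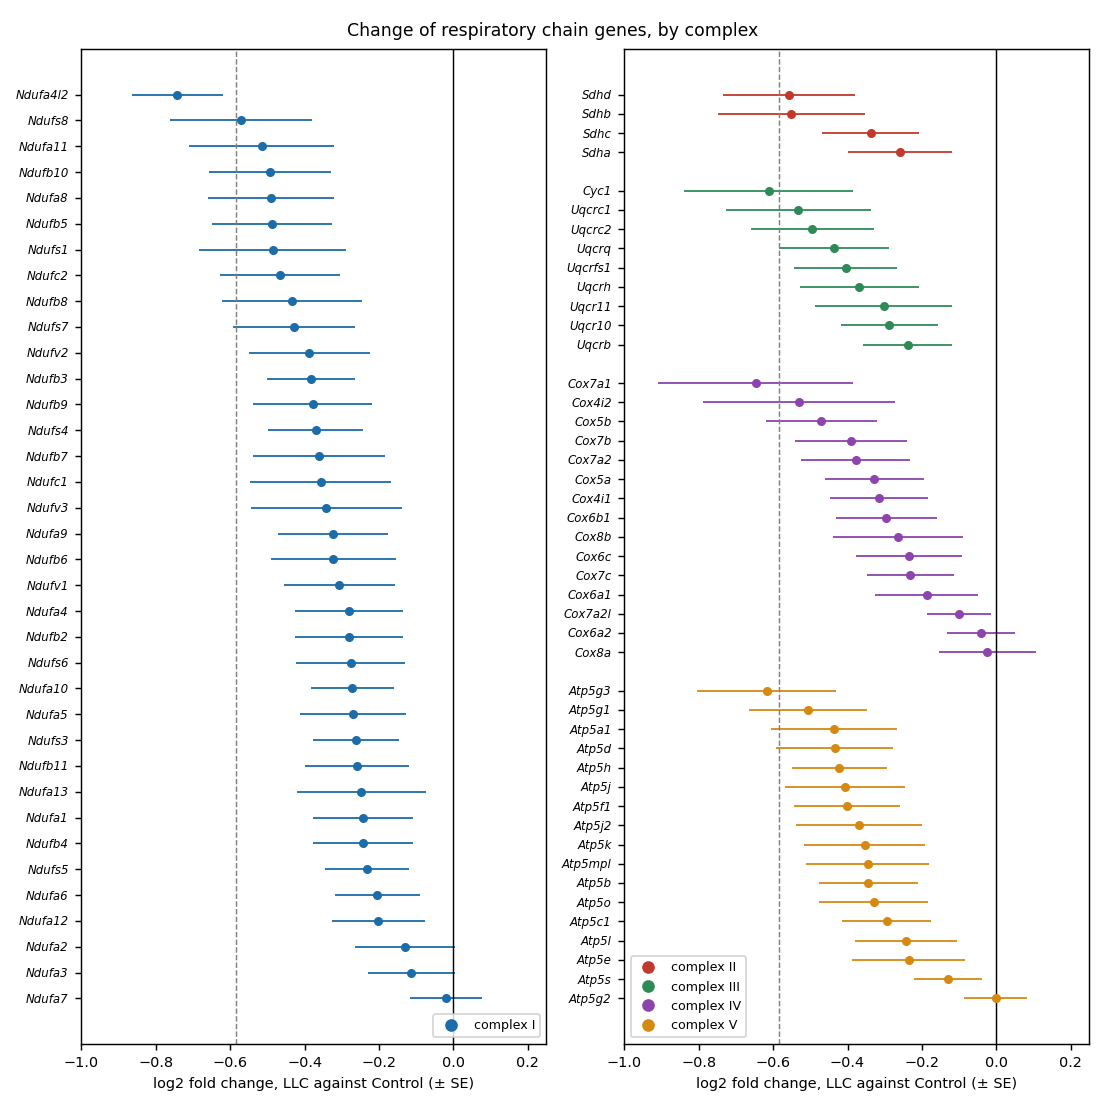
Log2 fold change of LLC against Control (horizontal axis, points, with the SE as bars) for 81 of the 82 tested genes, with complex I on the left and complexes II to V on the right, and the dashed line at a 1.5-fold decrease. All points lie left of 0 on this scaling (Atp5g2 moves to 0.01 with median-of-ratios scaling), from -0.74 (Ndufa4l2) to -0.00 (Atp5g2), and 4 lie beyond the dashed line.

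Complex II, succinate dehydrogenase, is also an enzyme of the citric acid cycle and is wholly nuclear-encoded. The median log2 fold change over its 4 genes was -0.44, and 3 had no overlap between groups, beside 9.57% of all genes tested. Without LLC 1 the median was -0.33, with 3 genes at an edgeR adjusted p of at most 0.05, beside 8.72% of all genes. Sdhd, a membrane anchor, had 300, 294, 311 and 292 CPM in Control and 119, 244, 246, 244, 181 and 185 CPM in LLC 1 to LLC 6 (-0.56 ± 0.18, edgeR adjusted p = 0.0825, and -0.44 with an adjusted p of 0.0161 without LLC 1). Sdhb, the iron-sulfur subunit, had 422, 469, 452 and 420 CPM in Control and 164, 369, 385, 347, 274 and 266 CPM in LLC (-0.55 ± 0.20, edgeR adjusted p = 0.109, and 0.0275 without LLC 1). In both genes LLC 1 was lowest and LLC 5 and LLC 6 came next. Sdha, the flavoprotein that oxidises succinate, was the least different of the 4, with 989 to 1058 CPM in Control and 603 to 1009 CPM in LLC (-0.26 ± 0.14, edgeR adjusted p = 0.239, and -0.17 without LLC 1).

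Complex III passes electrons from ubiquinol to cytochrome c. Of its 9 genes, 7 (77.8%) had no overlap between groups, beside 9.57% of all genes tested, and the median log2 fold change was -0.40. Without LLC 1 the median was -0.31, with 5 genes at an edgeR adjusted p of at most 0.05, beside 8.72% of all genes. Cyc1, cytochrome c1, had 458, 413, 460 and 433 CPM in Control and 133, 365, 357, 352, 261 and 262 CPM in LLC 1 to LLC 6. LLC 1 was far below the rest, and no LLC library reached the lowest Control library. The log2 fold change was -0.61 ± 0.23 (edgeR adjusted p = 0.119), and -0.46 with an adjusted p of 0.0189 without LLC 1. Uqcrc1, a core protein, had 797 to 842 CPM in Control and 298 to 689 CPM in LLC (-0.53 ± 0.19, edgeR adjusted p = 0.114). Uqcrfs1, the Rieske iron-sulfur protein, had 399 to 434 CPM in Control and 219 to 368 CPM in LLC (-0.41 ± 0.14, edgeR adjusted p = 0.0974). Both had an adjusted p under the limit without LLC 1 (0.0168 and 0.0295). Uqcrb, a small quinone-binding subunit, had overlapping groups, 255 to 301 CPM in Control and 179 to 269 CPM in LLC (-0.24 ± 0.12, edgeR adjusted p = 0.214).

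Complex V is made of the F1 head, where ATP is formed, the ring of c subunits in the membrane, and the peripheral stalk that holds them together. The median log2 fold change over its 17 genes was -0.35, and 11 had no overlap between groups, beside 9.57% of all genes tested. Without LLC 1 the median was -0.25, with 7 genes at an edgeR adjusted p of at most 0.05, beside 8.72% of all genes. All 4 genes of the stalk had no overlap between groups (median log2 fold change -0.40), as had 4 of the 5 genes of the head (-0.34). Of the 4 accessory genes of the membrane part, 1 had no overlap (-0.35). Atp5b, the catalytic beta subunit and the member with the highest CPM, had 3253, 3185, 3302 and 3203 CPM in Control and 1902, 2923, 2948, 2806, 2418 and 2301 CPM in LLC (-0.34 ± 0.13, edgeR adjusted p = 0.131). Atp5a1, the alpha subunit, had 2506, 2650, 2632 and 2628 CPM in Control and 1186, 2296, 2260, 2256, 1763 and 1790 CPM in LLC (-0.44 ± 0.17, edgeR adjusted p = 0.132). The catalytic pair thus separated the groups while its adjusted p missed the limit, and without LLC 1 that of Atp5a1 was 0.0430 and that of Atp5b 0.0640.

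The c ring is encoded by 3 genes whose products have the same mature protein and differ in the targeting peptide. The 3 genes differed in level, and Atp5g2 had a log2 fold change near 0, unlike Atp5g3 and Atp5g1. Atp5g3 (chromosome 2, 73908447 to 73911326, minus strand) had 556, 547, 598 and 543 CPM in Control and 206, 447, 459, 415, 344 and 324 CPM in LLC 1 to LLC 6. Atp5g1 (chromosome 11, 96068852 to 96075670, minus strand) had 451, 451, 478 and 437 CPM in Control and 208, 394, 381, 344, 318 and 275 CPM in LLC. Atp5g2 (chromosome 15, 102662864 to 102672352, minus strand) had 68.4, 66.0, 68.6 and 65.1 CPM in Control and 71.1, 66.8, 64.5, 63.0, 75.7 and 60.4 CPM in LLC. In the first 2 genes all LLC libraries were below all Control libraries, and in Atp5g2 the groups overlapped and LLC 1 was among the higher libraries. The log2 fold changes were -0.62 ± 0.19 for Atp5g3 (edgeR adjusted p = 0.0720), -0.51 ± 0.16 for Atp5g1 (0.0768) and -0.00 ± 0.08 for Atp5g2 (0.988), whose sign turned to 0.01 with DESeq2, with median-of-ratios scaling or with no filter. Without LLC 1 the first 2 were -0.49 and -0.40, with adjusted p of 0.0102 and 0.0191. Per kilobase of exon the Control levels were 257 CPM for Atp5g3, 92.5 for Atp5g1 and 40.0 for Atp5g2. An interaction between the genes was not tested, and Atp5g2 contains the microRNA gene Mir688 on its own strand.

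The 3 start regions are shown because the genes encode one protein, and Atp5g3 and Atp5g1 separated the groups while Atp5g2 did not. They run 5′ to 3′ from 250 bases before to 50 bases after the start, from RefSeq (GRCm38.p6), at chr2:73911277-73911576, chr11:96075582-96075881 and chr15:102670998-102671297, all on the minus strand. The windows of Atp5g3 and Atp5g1 contain the gene starts given above. That of Atp5g2 lies wholly inside its gene span, so its start here is a RefSeq start within the gene. Capitals mark an exact match to a searched motif.
Atp5g3: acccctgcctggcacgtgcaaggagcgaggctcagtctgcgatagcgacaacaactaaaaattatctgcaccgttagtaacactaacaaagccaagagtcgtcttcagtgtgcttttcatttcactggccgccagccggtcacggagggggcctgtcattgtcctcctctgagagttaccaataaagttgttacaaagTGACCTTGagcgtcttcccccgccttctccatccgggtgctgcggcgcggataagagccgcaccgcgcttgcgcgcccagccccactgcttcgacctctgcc
Atp5g1: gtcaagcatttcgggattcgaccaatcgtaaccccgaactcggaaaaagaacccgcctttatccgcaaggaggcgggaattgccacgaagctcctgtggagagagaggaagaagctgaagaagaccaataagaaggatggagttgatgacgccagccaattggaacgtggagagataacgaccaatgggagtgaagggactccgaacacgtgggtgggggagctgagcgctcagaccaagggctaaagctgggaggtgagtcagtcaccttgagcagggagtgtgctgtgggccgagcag
Atp5g2: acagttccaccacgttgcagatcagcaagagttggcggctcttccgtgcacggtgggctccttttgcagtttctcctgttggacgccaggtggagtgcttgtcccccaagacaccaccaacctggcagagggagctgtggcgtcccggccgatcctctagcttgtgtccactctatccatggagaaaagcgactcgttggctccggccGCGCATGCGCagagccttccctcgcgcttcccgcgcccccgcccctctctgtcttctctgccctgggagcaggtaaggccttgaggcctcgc
Atp5g3 held an estrogen-related receptor (ERR) half-site, CAAGGTCA, on the opposite strand 52 bases before the start. Atp5g2 held the nuclear respiratory factor 1 (NRF-1) core GCGCATGC, found on both strands by 2 overlapping matches 42 and 40 bases before the start, and Atp5g1 held none of the motifs searched.

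Start regions were available for 64 of the 82 tested genes and were searched on both strands for 6 motifs. The NRF-1 core GCGCATGC was found in 10 (15.6%), beside 2.71% of 32851 windows of the same length, and the ETS core CCGGAAG bound by GABP in 15 (23.4%), beside 8.86%. The ERR half-site CAAGGTCA was found in 4 (6.25%), beside 1.56%, and the YY1 core AAGATGGC in 8 (12.5%), beside 2.75%, with 7 of the 8 in complex I. The MEF2 core TAAAAATA was found in 0, beside 2.72%, and TATAAA in 6 (9.38%), beside 13.6%. A match describes letters in a window and not a bound site.

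Complex IV reduces oxygen, and the log2 fold changes of its tested genes had a median of -0.30. Of the 15 genes, 5 (33.3%) had no overlap between groups, beside 9.57% of all genes tested. Without LLC 1 the median was -0.21, with 3 genes at an edgeR adjusted p of at most 0.05, beside 8.72% of all genes. Cox5a, a subunit with a single form, had 236 to 250 CPM in Control and 132 to 228 CPM in LLC (-0.33 ± 0.13, edgeR adjusted p = 0.144, and 0.0466 without LLC 1). Cox4i1, the common form of subunit 4, had 518 to 571 CPM in Control and 312 to 498 CPM in LLC (-0.32 ± 0.13, edgeR adjusted p = 0.155). Both separated the groups. Cox4i2, the form of subunit 4 found in lung and raised by low oxygen, was near the limit of detection with 15 to 45 counts per library, 1.37 to 2.43 CPM in Control and 0.87 to 1.93 CPM in LLC (-0.53 ± 0.26, edgeR adjusted p = 0.205). Its groups overlapped.

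The 3 muscle isoforms of complex IV had log2 fold changes with a median of -0.27 (-0.14 without LLC 1) and differed among themselves. Cox7a1, the heart and muscle form of subunit 7A (chromosome 7, 30184144 to 30186078, plus strand), had 270, 302, 290 and 277 CPM in Control and 72.6, 243, 243, 209, 169 and 154 CPM in LLC 1 to LLC 6. LLC 1 was again far below the rest, and no LLC library reached the lowest Control library. The log2 fold change was -0.65 ± 0.26 (edgeR adjusted p = 0.143), and -0.48 with an adjusted p of 0.0278 without LLC 1. Cox6a2, the muscle form of subunit 6A and the member with the highest level per kilobase of exon (881 CPM per kilobase in Control), had 624, 586, 614 and 574 CPM in Control and 545, 564, 628, 558, 657 and 543 CPM in LLC, with the groups overlapping (-0.04 ± 0.09, edgeR adjusted p = 0.785, and -0.01 without LLC 1). Cox8b, the muscle form of subunit 8, had 273, 294, 301 and 257 CPM in Control and 137, 265, 282, 261, 258 and 202 CPM in LLC (-0.27 ± 0.17, edgeR adjusted p = 0.330, and -0.14 without LLC 1). Here LLC 1 and LLC 6 were low and the other 4 lay among the Control libraries. Exons of Cox6a2 overlap Itgad on the opposite strand.

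The ubiquitous partners showed the same mixture. Cox7a2 (chromosome 9, 79755361 to 79759878, minus strand) had 155, 162, 171 and 146 CPM in Control and 81.9, 141, 147, 128, 127 and 104 CPM in LLC (-0.38 ± 0.15, edgeR adjusted p = 0.132), with LLC 3 just above the lowest Control library. Cox6a1 had 11.2 to 16.2 CPM in Control and 9.71 to 14.6 CPM in LLC (-0.19 ± 0.14, edgeR adjusted p = 0.383). Cox8a had 18.9 ± 2.2 CPM in Control (SD, n = 4) and 14.9 to 23.2 CPM in LLC (-0.02 ± 0.13, edgeR adjusted p = 0.916), with LLC 1 the highest of the 10 libraries and a log2 fold change of -0.09 without it. The sign of Cox8a turned to between 0.02 and 0.03 when Control 1, Control 3, LLC 2 or LLC 4 was left out.

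The start regions of Cox7a1 and Cox7a2 are shown because this pair had the largest difference of the 3 muscle pairs in the comparison that follows. They are from RefSeq (GRCm38.p6) at chr7:30183921-30184220 (plus strand) and chr9:79759804-79760103 (minus strand), and neither held any of the 6 motifs, so no letters are in capitals.
Cox7a1: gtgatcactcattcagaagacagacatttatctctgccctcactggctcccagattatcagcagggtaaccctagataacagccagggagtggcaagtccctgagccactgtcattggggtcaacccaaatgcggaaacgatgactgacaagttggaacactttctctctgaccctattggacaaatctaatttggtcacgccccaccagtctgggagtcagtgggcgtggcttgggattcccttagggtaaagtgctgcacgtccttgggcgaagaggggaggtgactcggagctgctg
Cox7a2: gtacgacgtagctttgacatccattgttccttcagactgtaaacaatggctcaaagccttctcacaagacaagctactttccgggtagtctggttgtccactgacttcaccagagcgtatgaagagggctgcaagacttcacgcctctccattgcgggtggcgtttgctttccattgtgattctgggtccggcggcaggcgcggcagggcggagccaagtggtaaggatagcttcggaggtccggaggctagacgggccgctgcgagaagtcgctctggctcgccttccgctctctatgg

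The muscle and ubiquitous form of a subunit were compared as a log2 ratio within each library, in which the scaling of libraries cancels. For Cox7a1 over Cox7a2 the ratio was 0.80, 0.90, 0.77 and 0.93 in Control and -0.17, 0.78, 0.72, 0.70, 0.42 and 0.56 in LLC 1 to LLC 6. All LLC libraries but LLC 2 lay below every Control library, and in LLC 1 the log2 ratio was below 0. These are ratios of CPM with no correction for exon length, so a value below 0 does not show which form led. The LLC mean minus the Control mean was -0.35 (exact permutation test, two-sided, p = 0.0190, Benjamini-Hochberg adjusted over 5 pairs 0.0952, n = 4 and 6), and -0.21 without LLC 1 (exact permutation p = 0.0317, adjusted 0.0794). It thus failed the correction, although 210 splits allow a p as small as 0.00952.

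For Cox6a2 over Cox6a1 the LLC minus Control difference was 0.14 (5.68 ± 0.14 against 5.54 ± 0.21, exact permutation p = 0.286, adjusted 0.476). For Cox8b over Cox8a it was -0.27 (3.62 ± 0.59 against 3.89 ± 0.18, exact permutation p = 0.467, adjusted 0.505), and -0.06 without LLC 1. The sign of the difference was thus mixed among the 3 muscle pairs. With these p-values no direction can be read for the Cox6a2 and Cox8b pairs. Per kilobase of exon the Control level of the muscle form was 47.9 times that of the ubiquitous form for subunit 6A, 25.6 times for subunit 8 and 3.18 times for subunit 7A.

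The low-oxygen forms were compared in the same way. Ndufa4l2 over Ndufa4 was -5.95, -6.44, -6.24 and -5.95 in Control and -5.90, -6.73, -6.81, -6.98, -6.54 and -6.50 in LLC 1 to LLC 6, a difference of -0.43 (exact permutation p = 0.0762, adjusted 0.190). LLC 1 was the highest library of all 10, and the other 5 LLC libraries lay below every Control library. Without LLC 1 the difference was -0.57 (exact permutation p = 0.0159, adjusted 0.0794). Cox4i2 over Cox4i1 differed by -0.19 (exact permutation p = 0.505, adjusted 0.505). None of the 5 pairs passed the adjusted limit in the full design. Without LLC 1 the 126 splits allow no p under 0.0159, so a single pair of 5 cannot have an adjusted p under 0.0794 and the limit could not be reached by 1 pair alone.

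**Figure D4:**
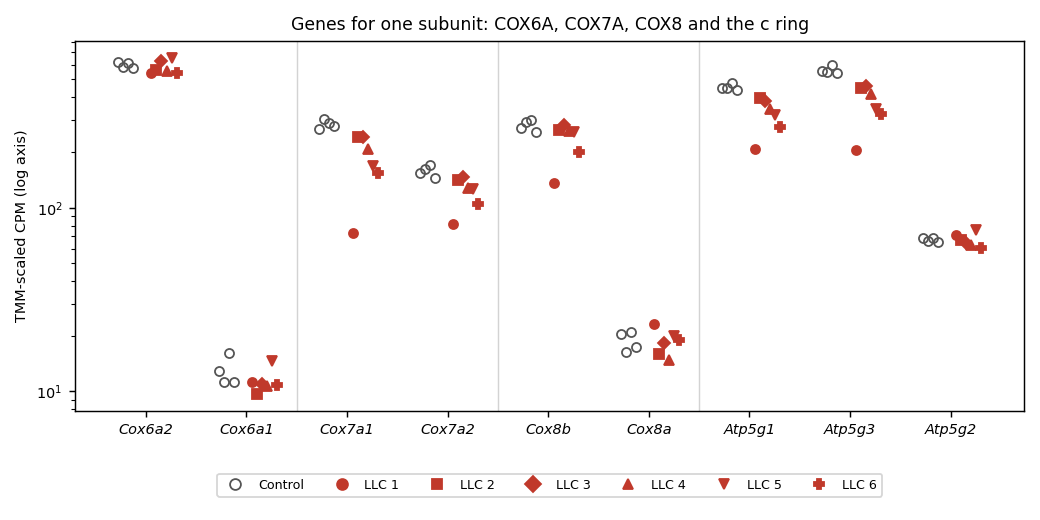
TMM-scaled CPM on a log axis for the muscle and ubiquitous forms of subunits 6A, 7A and 8 of complex IV and for the 3 c ring genes, with 4 Control libraries as open circles and 6 LLC libraries as filled symbols, 1 per animal. Cox7a1, Atp5g1 and Atp5g3 spread downward in LLC to 72.6, 208 and 206 CPM in LLC 1, whereas Cox6a2, Cox8a and Atp5g2 overlap between the groups.

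Genes that work with the chain were counted from lists by function. The 13 subunits encoded in mitochondrial DNA had a log2 fold change below 0 in 13 of 13, with a median of -0.31. None was called, beside 5.63% of all genes tested, and 9 had no overlap between groups, beside 9.57%. Mitochondrial DNA gave 29.6% ± 1.0 of counts in Control and 25.6% ± 2.5 in LLC. Of 14 genes for electron carriers and ubiquinone synthesis, 13 were below 0 (median -0.23), and 1 was called lower, Pdss1, which makes the side chain of ubiquinone (log2 fold change -0.72 ± 0.20, edgeR adjusted p = 0.0470). Without LLC 1 its adjusted p was 0.00622 and its log2 fold change -0.58, just short of the 1.5-fold limit. Cycs, cytochrome c, had 373 CPM in Control and 249 ± 60 in LLC (-0.58 ± 0.17, edgeR adjusted p = 0.0693, and 0.00743 without LLC 1). In the fit without LLC 1, 5 of the 14 genes had an edgeR adjusted p of at most 0.05, beside 8.72% of all genes, and the median was -0.19.

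Of 44 tested assembly factors, 38 were below 0 (median -0.25, and -0.16 without LLC 1) and none was called, and Cox10, needed for the heme of complex IV, had an adjusted p of 0.0472 just under the fold limit (-0.58 ± 0.16, edgeR). Of 19 tested genes for import and the outer membrane, 13 were below 0 (median -0.17, and -0.09 without LLC 1) and none was called. Regulators of mitochondrial gene expression were split, 8 of 15 below 0 (median -0.04) and none called, and without LLC 1 there were 7 of 15 below 0 with a median of 0.01. Among them Esrra, Esrrb and Ppargc1b had log2 fold changes of -0.71 ± 0.24, -0.74 ± 0.23 and -0.73 ± 0.34 (edgeR adjusted p of 0.0977, 0.0741 and 0.185), while Nrf1, Gabpa and Tfam were at 0.10, 0.08 and -0.04. Pprc1 and Yy1 were at 0.475 and 0.36 (edgeR adjusted p of 0.0787 and 0.206). Ppargc1a was at -0.40 ± 0.28 (edgeR adjusted p = 0.348), with LLC 1 the highest library at 54.5 CPM. Without LLC 1, Ppargc1a was at -0.63 (edgeR adjusted p = 0.0583) and Esrra at -0.55 (edgeR adjusted p = 0.0186).

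Markers of fiber type and of other cell types were summed in each library. The summed level of 7 slow or oxidative fiber markers was 382 to 1045 CPM in Control and 78.5 to 372 CPM in LLC. LLC 1 was lowest, as in the respiratory chain genes, and LLC 5 next at 161 CPM. Control 4 was at 1045 CPM, and the next Control library at 534 CPM. Most of the sum was Myh2, at 318 to 927 CPM in Control and 30.9 to 319 CPM in LLC. Of the 7 markers, 6 were below 0 (median log2 fold change -0.53), 1 had no overlap between groups and none was called. Tnnt1 and Atp2a2 were at -0.11 and 0.00. Without LLC 1, 7 of 7 were below 0 (median -0.47) and 2 were called lower. These were Myl3 (-1.43, edgeR adjusted p = 0.00446) and Myh2 (-1.09, edgeR adjusted p = 0.0417). Myh2, the myosin of oxidative fast fibers, had 503 CPM in Control and 201 ± 107 in LLC (-1.32 ± 0.51, edgeR adjusted p = 0.127). The 7 fast fiber markers summed to 97720 to 105100 CPM in Control and 78200 to 110900 CPM in LLC, again with LLC 1 lowest.

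Neutrophil markers summed to 0.95 to 2.96 CPM in Control and 33.6 to 72.9 CPM in LLC, with 8 of 8 tested called higher. Red cell markers summed to 58.8 to 83.4 CPM in Control and 88.7 to 144 CPM in LLC, with 3 of 5 called higher. Macrophage markers summed to 15.5 to 23.1 and 9.73 to 17.1 CPM (1 of 7 tested called lower), and adipocyte markers to 145 to 178 and 138 to 199 CPM (0 of 3 tested called). Nearly all of the adipocyte sum was Fabp4, at 152.5 CPM in Control and 155.9 CPM in LLC. Adipoq and Cidec, the other adipocyte markers tested, were low in level, with log2 fold changes of -0.82 and -0.90 (edgeR adjusted p = 0.203 and 0.235). The adipocyte sum thus says little of those genes. The part of fiber type and of the cell types named here in the lower respiratory chain levels was not tested.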

How the data were processed

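Muscle RNA of 4 Control and 6 LLC mice (1 library per mouse) was measured by stranded total RNA sequencing in one lane. Per the methods and the submitters' notes, the authors mapped reads with TopHat2 to mm10 and counted with HTSeq at default settings. The deposited values are raw read counts per Ensembl gene, although the methods name RefSeq genes, so the annotation release is not given in the sources used here, and the strand setting only as the HTSeq default. Exons of 26 tested members overlap a gene on the other strand and those of 5 a gene on the same strand. Near-identical copies and pseudogenes can take reads from a member, so levels between genes are uncertain.

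Gene names and coordinates came from the GENCODE M21 annotation (GRCm38), which matched 37607 of 39179 identifiers. Genes were filtered with filterByExpr (minimum count 10, 12690 kept), scaled by TMM and compared with edgeR 4.0.16 (R 4.3.3) by glmQLFTest, LLC against Control, over all genes with no covariate. CPM are TMM-scaled, and log2 CPM use a prior count of 2. A gene was called at a Benjamini-Hochberg adjusted p of at most 0.05 and 1.5-fold. DESeq2 1.42.0 was an alternative. Isoform ratios were tested by exact permutation (scipy 1.17.1). The fit was tested on simulated data. Counting floors of 3 counts cover counting error only.

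Named genes were the electron-carrying and catalytic subunits, isoform pairs, and for each complex the 2 genes with the lowest and the 1 with the highest fold change, and other genes were named after their values were seen. Values of 1 tested member are not reported here, although it counts in all totals. The members and lists were chosen with earlier results of these data known. Alternatives were other scalings, no low-count filter, a replicate block and leaving out each library.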

Additional observations from a re-analysis of the deposited data

How the results depend on the processing

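The labels number Control 1 to 4 and LLC 1 to 6 separately and come from different animals, and same-numbered libraries did not deviate together (r = -0.03, 0.01, -0.08 and 0.13 for numbers 1 to 4). With the replicate number as a block, 112 genes in place of 715 were called, 0 members in place of 1, 19 members in place of 43 were lower at an unadjusted p of 0.05, and 0 in place of 1 at the adjusted p without a fold limit, where Ndufa4l2 stood at -0.76 (edgeR adjusted p = 0.111). DESeq2 called 2 members and put 7 at an adjusted p of at most 0.05, a count without fold limit that was chosen after seeing the data, and Atp5g3 passed there at -0.61 (DESeq2 adjusted p = 0.0279). Leaving out 1 library gave 415 to 966 called genes (415 to 438 without a Control library), 1 called member each time, 21 to 53 members at the unadjusted p (25 without Control 2, 21 without Control 3, 25 without LLC 6) and 1 to 29 at the adjusted p without a fold limit (29 without LLC 1). The cause of these differences was not tested. Reversed signs were all near 0: Atp5g2 was 0.00898 with DESeq2, 0.00871 with median-of-ratios factors, 0.009 with no filter and -0.0403 to 0.0265 without 1 library, Cox8a was -0.0904 to 0.0317 without 1 library and Ndufa7 -0.0621 to 0.0335. The median log2 fold changes of all members and of each complex kept their direction under every alternative run, and the count without overlap was 43 to 52 without 1 library. The 5 isoform ratios kept their direction. With 1 library left out, 126 or 84 splits allow no adjusted p under 0.0794 or 0.119 for a single pair, so those fits say nothing of its side of the limit. Other scalings moved the median of all genes by -0.03 to 0.01. Groups of 4 and 6 and counts of 15 to 133 limit what can be seen for Cox4i2 and Ndufa4l2.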
